A study of Mus musculus with 56 samples.

Results

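The 7 genes Lhx1, Six3, Six6, Zfhx3, Syt10, Rgs16 and Prokr2 were chosen by name as identity and signalling factors of the suprachiasmatic nucleus (SCN) and are 7 of the 17564 genes in the deposited table. All 7 had whole read counts in every mouse and passed the filter on low values. PolyA RNA of the dissected anterior hypothalamus was measured in 56 female C57BL/6J mice, which were all 9 weeks old and lived under a 12h light:12h dark cycle. For the last 7 days 28 mice had food only in the light phase (day time-restricted feeding, DRF) and 28 only in the dark phase (night time-restricted feeding, NRF). Within each regimen 4 mice were taken every 4 h from ZT0 to ZT24, where ZT stands for zeitgeber time in hours, ZT0 is lights on and ZT12 lights off, and the ZT24 mice were other animals than the ZT0 mice. There was no group fed without restriction, so each comparison below is of DRF with NRF. Each mouse gave 1 library, and p-values measure the spread between these mice.

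The SCN is a small paired nucleus above the optic chiasm that holds the central circadian clock. Lhx1, Six3, Six6 and Zfhx3 are transcription factors that act in the formation of the SCN or in the expression of its neuropeptides, and Syt10, Rgs16 and Prokr2 belong to its secretion and its G protein signalling. Some of them are not restricted to the SCN: Six3 and Six6 are broadly used in the developing forebrain, eye and hypothalamus, Zfhx3 is made in many neurons, and Rgs16 is known from the thalamus as well. In bulk tissue fewer cells of a type and less RNA per cell cannot be told apart.

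In the annotation that matched the deposited values (GRCm38, GENCODE M21) Lhx1 lay at chr11:84518284-84525535 on the minus strand, Six3 at chr17:85613608-85629302, Six6 at chr12:72939892-72944899, Zfhx3 at chr8:107942644-108961630 and Rgs16 at chr1:153740349-153745468 on the plus strand, and Syt10 at chr15:89782393-89841860 and Prokr2 at chr2:132337733-132385447 on the minus strand. The union of their exons ranged from 1845 bases in Syt10 to 20976 bases in Zfhx3. Exons of Six3, Six6 and Rgs16 overlapped a gene on the other strand, by 168 bases with Gm28528 and 106 bases with Six3os1 for Six3, by 192 bases with 4930447C04Rik for Six6 and by 236 bases with Gm28513 for Rgs16. Whether reads were counted by strand is not given in the sources used here, so reads of these stretches cannot be assigned to one partner. No stretch of 50 bases was shared between exons of any pair of the 7 genes.

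Promoters are shown for Lhx1, which was higher in DRF than in NRF at ZT16, and for Zfhx3, Syt10 and Prokr2, since Syt10 was correlated with each of the other two across mice. Each runs from 250 bases before to 50 bases after the RefSeq start (GRCm38.p6), 5′ to 3′ on the strand of the gene, at chr11:84525485-84525784 for Lhx1, chr8:108714394-108714693 for Zfhx3, chr15:89841811-89842110 for Syt10 and chr2:132385398-132385697 for Prokr2. Capitals mark TGACG, the core of the cAMP response element, through which light and peptide signals reach transcription in SCN cells.
Lhx1: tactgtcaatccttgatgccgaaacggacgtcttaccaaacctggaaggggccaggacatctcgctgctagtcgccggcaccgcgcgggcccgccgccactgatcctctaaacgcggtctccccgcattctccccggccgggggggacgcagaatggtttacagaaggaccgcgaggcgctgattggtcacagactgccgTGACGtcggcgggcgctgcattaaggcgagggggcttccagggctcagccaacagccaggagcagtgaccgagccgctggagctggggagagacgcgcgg
Zfhx3: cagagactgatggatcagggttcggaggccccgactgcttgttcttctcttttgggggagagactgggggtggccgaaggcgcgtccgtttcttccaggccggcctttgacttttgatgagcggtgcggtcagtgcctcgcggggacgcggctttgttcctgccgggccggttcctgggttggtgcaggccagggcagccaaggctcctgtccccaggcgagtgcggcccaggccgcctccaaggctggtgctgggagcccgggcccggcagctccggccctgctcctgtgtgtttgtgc
Syt10: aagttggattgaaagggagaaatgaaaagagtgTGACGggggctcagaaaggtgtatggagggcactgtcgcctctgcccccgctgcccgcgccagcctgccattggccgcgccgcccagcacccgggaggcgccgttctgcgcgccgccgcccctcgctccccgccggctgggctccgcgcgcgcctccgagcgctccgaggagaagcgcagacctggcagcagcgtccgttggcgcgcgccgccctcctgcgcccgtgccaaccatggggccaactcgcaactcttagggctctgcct
Prokr2: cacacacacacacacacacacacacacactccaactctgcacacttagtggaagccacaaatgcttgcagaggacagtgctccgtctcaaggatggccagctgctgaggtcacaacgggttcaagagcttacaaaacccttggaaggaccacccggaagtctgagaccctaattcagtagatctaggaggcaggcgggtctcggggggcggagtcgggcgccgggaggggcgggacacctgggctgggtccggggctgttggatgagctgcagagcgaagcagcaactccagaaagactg
Both strands of all 7 promoters were searched for TGACG, the E-box CACGTG, the homeodomain core TAATTA and the core TGATAC of Six3-type factors. Lhx1 held TGACG 50 bases before its start and Syt10 held it 217 bases before its start. None of these letters were found in the windows of the other 5 genes. Of 32851 promoters of the same length, 20.8% held TGACG, 7.15% CACGTG, 5.29% TAATTA and 5.46% TGATAC. The Zfhx3 window lies inside the span that GENCODE gives the gene, so it shows 1 of its starts.

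Normalized library sizes were 29591265 to 34493343 reads, the DRF median being 30783110 and the NRF median 30808272, and mice of a group correlated at 0.984 or more over genes. Neuropeptide markers of the anterior hypothalamus outside the list, Avp (mean 172.06 CPM, that is reads per 1000000 reads of the library) and Oxt (267.64 CPM), were present in all 56 mice. So were the markers of neighbouring brain areas, except Emx1 of the telencephalon list, which was at 0 in 4 mice, with the widest ranges of summed level in the lateral hypothalamus list (11.64 times between the highest and lowest mouse) and the thalamus list (6.55 times). Of the pituitary markers Gh, Prl and Cga were at 0 in 38, 41 and 25 mice. The libraries of DRF ZT16 replicates 3 and 4 stood apart in the rank correlation, over genes, of a library's deviation in expression with the GC content of the gene (GC correlation, 0.672 and 0.788 against -0.504 to 0.463 in the other 54 libraries), and the ZT16 differences, interactions and DRF rhythm fits described below are given with and without them.

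Per kilobase of exon, Syt10 had the highest mean level (32.48 CPM per kb over 56 mice, range 13.18 to 42.83), followed by Rgs16 (16.76, range 10.5 to 28.02) and Six3 (10.55, range 7.49 to 13.12). Zfhx3 (3.53), Six6 (2.9), Lhx1 (1.56) and Prokr2 (1.47) were lower. Neighbours in this order overlapped over mice, except Six3 and Zfhx3. In reads the range was from 144 to 361 in Lhx1, the least covered gene, to 1753 to 2778 in Zfhx3. Within the 14 groups Rgs16 and Six6 varied most, with SDs of 0.328 and 0.323 on the log2(CPM + 1) scale, against a median of 0.114 over all genes tested. Syt10 (0.252), Prokr2 (0.235) and Lhx1 (0.167) were above that median, while Six3 (0.121) and Zfhx3 (0.119) were close to it. Without the 2 libraries that stood apart the SD of Syt10 was 0.171.

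**Figure D1:**
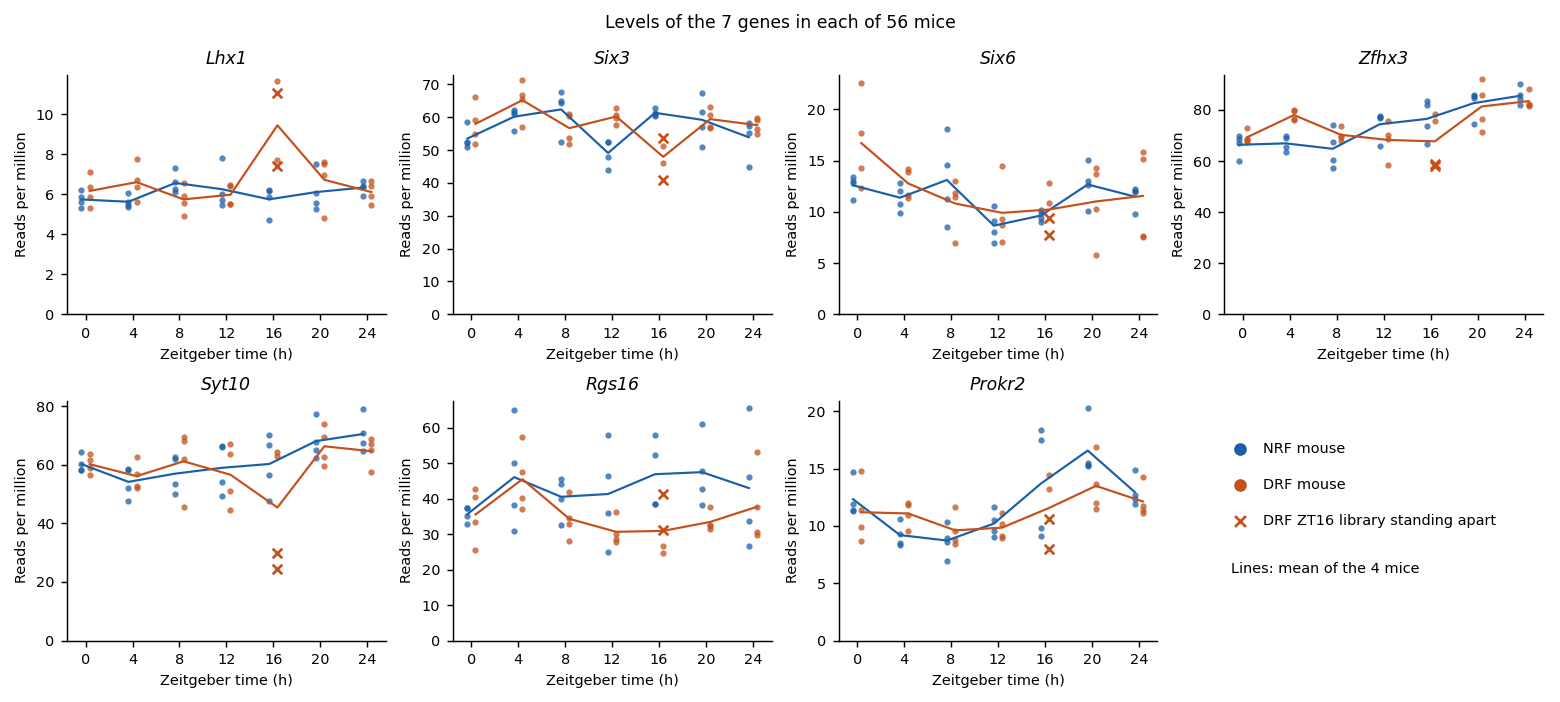
Level of each gene in CPM (vertical axes, from 0) by zeitgeber time in hours (horizontal axes), with 1 point per mouse and lines through the means of 4 mice, DRF and NRF in separate colours. The group mean of Lhx1 was highest in DRF ZT16 (mice at 7.39 to 11.6 CPM) and that of Prokr2 in NRF ZT20 (mice at 15.2 to 20.2 CPM). Single mice of other groups reached into these ranges. Of the 4 DRF ZT16 mice, 2 had the lowest Syt10 levels (30.0 and 24.3 CPM).

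Lhx1 is a LIM homeodomain factor required in SCN neurons for the peptides that couple them. It ranged from 4.79 to 11.6 CPM in DRF (median 6.42) and from 4.73 to 7.82 CPM in NRF (median 6.03). The Lhx1 group means from ZT0 to ZT24 were 6.17, 6.6, 5.74, 5.98, 9.45, 6.72 and 6.11 CPM in DRF (SD 0.763, 0.899, 0.686, 0.534, 2.2, 1.32 and 0.522, n = 4 each). The Lhx1 means in NRF were 5.74, 5.62, 6.57, 6.25, 5.75, 6.11 and 6.34 CPM (SD 0.381, 0.307, 0.531, 1.07, 0.691, 1.0 and 0.298, n = 4 each). Its lowest group was NRF ZT4 and its highest DRF ZT16, and the other 12 groups lay between 5.74 and 6.72 CPM. Of the 13 steps between neighbouring groups in this order only the last, from DRF ZT20 to DRF ZT16, was larger than the larger SD of its pair.

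At ZT16, in the dark phase, the 4 DRF mice had 7.71, 11.6, 11.0 and 7.39 CPM of Lhx1 and the 4 NRF mice 6.23, 4.73, 5.88 and 6.14 CPM. Every DRF mouse was above every NRF mouse, as the groups did not overlap for 7.95% of all genes at this time point. The difference was 0.61 on the log2(CPM + 1) scale (SE 0.12, approximate 95% interval 0.38 to 0.84, adjusted p = 0.00126, limma with Benjamini-Hochberg adjustment over 16074 genes). Of all genes, 20.2% passed this threshold at ZT16, and 6.69% did so with the higher level in DRF. Without the 2 libraries that stood apart the difference was 0.64 (adjusted p = 0.0265), where 0.205% of genes passed. Leaving out replicate 3 of every group gave 0.55 (adjusted p = 0.105). The arcuate and ventromedial list also stood higher in DRF at ZT16 (mean log2 level 3.64 to 3.89 against 3.0 to 3.66 in NRF), although none of its 7 genes passed the test, and with that list as a covariate the Lhx1 difference was 0.52 (adjusted p = 0.00307). With the thalamus list as a covariate it was 0.50 (adjusted p = 0.0112).

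Six3 is a homeodomain factor of the anterior forebrain whose product is needed for the SCN to form. It ranged from 40.8 to 71.5 CPM in DRF (median 58.4) and from 44.0 to 67.8 CPM in NRF (median 57.8). The Six3 group means from ZT0 to ZT24 were 58.0, 65.2, 56.7, 60.2, 47.9, 59.4 and 57.6 CPM in DRF (SD 6.2, 6.07, 4.69, 2.14, 5.7, 3.1 and 2.28, n = 4 each). The Six3 means in NRF were 53.5, 60.2, 62.4, 49.1, 61.3, 59.2 and 53.9 CPM (SD 3.35, 2.86, 6.69, 4.05, 1.03, 6.99 and 6.23, n = 4 each). Its lowest and highest groups were both in DRF, at ZT16 and ZT4. Of the 13 steps between neighbouring groups 12 were within the larger SD. At ZT16 the DRF mice had 51.3, 46.1, 40.8 and 53.5 CPM and the NRF mice 61.4, 60.5, 62.8 and 60.7 CPM, so that every DRF mouse was below every NRF mouse. At ZT12, at lights off, the order was the opposite, with 57.8, 60.6, 59.7 and 62.9 CPM in DRF and 52.3, 52.4, 47.7 and 44.0 CPM in NRF. The groups did not overlap for 6.34% of all genes at ZT12.

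The ZT16 difference in Six3 was -0.36 (SE 0.084, adjusted p = 0.00434, limma), 13.5% of all genes being lower in DRF by this test. Without the 2 libraries that stood apart it was -0.33 with 2 DRF mice left (adjusted p = 0.158), and without replicate 3 of every group -0.27 (adjusted p = 0.17). With all mice and each library's trend against GC content, length and level removed it was -0.43 (adjusted p = 0.000632). With the thalamus or the arcuate and ventromedial list as a covariate it was -0.42 and -0.37 (adjusted p = 0.00591 and 0.00638). The ZT12 difference was 0.29 (SE 0.084, adjusted p = 0.0586), and it was 0.29 with an adjusted p of 0.0285 when the 2 DRF ZT16 libraries were left out of the same fit. At ZT12 1.49% of all genes passed, and 4.24% without those libraries. Averaged over the day Six3 differed by 0.02 (SE 0.032, interval -0.04 to 0.08).

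Whether the difference between regimens changed with time was tested by an interaction F test, added after the data had been seen. Six3 (F = 6.22, adjusted p = 0.00265, limma) and Lhx1 (F = 4.75, adjusted p = 0.013, limma) passed, and the other 5 genes did not, while 13.2% of all genes passed. Without the 2 libraries that stood apart the adjusted p was 0.00764 for Six3 and 0.0221 for Lhx1, where 12.6% of all genes passed. Without ZT16 it was 0.126 and 0.377, where 12.4% of all genes passed. Without replicate 3 of every group it was 0.111 and 0.424, and there the share of all genes that passed was 1.92%.

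Six6, a paralog of Six3 that is required for the optic chiasm and the SCN, ranged from 5.8 to 22.6 CPM in DRF (median 11.7) and from 6.92 to 18.1 CPM in NRF (median 11.2). The Six6 group means from ZT0 to ZT24 were 16.7, 12.8, 10.8, 9.9, 10.2, 11.0 and 11.6 CPM in DRF (SD 4.51, 1.49, 2.65, 3.22, 2.19, 3.91 and 4.59, n = 4 each). The Six6 means in NRF were 12.6, 11.4, 13.1, 8.65, 9.64, 12.7 and 11.5 CPM (SD 1.01, 1.31, 4.14, 1.54, 0.514, 2.05 and 1.13, n = 4 each). The lowest group was NRF ZT12 and the highest DRF ZT0, and every step between neighbouring groups was within the larger SD. The 4 DRF ZT24 mice had 15.9, 7.56, 15.2 and 7.61 CPM, that is 2 high and 2 low values in 1 group. The spread within groups was 0.399 in DRF and 0.223 in NRF on the log2 scale, a difference that was not tested. The median spread over all genes tested was also wider in DRF (0.124 against 0.096), as was that of Syt10 (0.317 against 0.163). At no time point did the regimens separate, and the mean difference over the day was 0.02 (SE 0.083, interval -0.14 to 0.19, adjusted p = 0.895, limma).

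Zfhx3 encodes a large zinc finger homeodomain protein that drives transcription of SCN neuropeptide genes through AT-rich sites. It ranged from 58.0 to 92.1 CPM in DRF (median 74.8) and from 57.1 to 90.3 CPM in NRF (median 73.9). The Zfhx3 group means from ZT0 to ZT24 were 69.3, 78.0, 70.3, 68.3, 67.7, 81.4 and 83.5 CPM in DRF (SD 2.37, 2.16, 2.54, 7.15, 10.8, 9.3 and 3.12, n = 4 each). The Zfhx3 means in NRF were 66.4, 66.9, 64.8, 74.4, 76.5, 82.6 and 85.6 CPM (SD 4.32, 2.9, 7.64, 5.72, 7.8, 5.52 and 3.53, n = 4 each). In NRF the 3 groups of the light phase from ZT0 to ZT8 were lower than the 4 from ZT12 to ZT24, and in DRF the highest groups were ZT20 and ZT24. At ZT4 the lowest DRF mouse had 76.0 CPM, and the NRF mice had 65.6, 63.5, 68.9 and 69.7 CPM. These did not overlap, which was so for 14.1% of all genes, and the difference of 0.22 did not pass the test (SE 0.082, adjusted p = 0.125, limma).

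The ZT24 mice were sampled at the same clock phase as the ZT0 mice. In NRF, Zfhx3 had 85.8, 82.0, 84.1 and 90.3 CPM at ZT24 and 68.6, 60.1, 69.8 and 66.9 CPM at ZT0, with no overlap, as for 21.7% of all genes. The difference of 0.36 (SE 0.082) passed the test (adjusted p = 0.0218, limma), as did 2.07% of all genes, and it was the only one of the 7 genes to do so in either regimen. In DRF the ZT24 mice had 81.8, 81.6, 82.4 and 88.1 CPM and the ZT0 mice 67.4, 68.3, 68.8 and 72.8 CPM, again with no overlap, as for 9.54% of all genes. The DRF difference was 0.26 (SE 0.082, adjusted p = 0.122), where 0.491% of all genes passed. The NRF difference was 0.34 to 0.4 when any one replicate number was left out, with adjusted p from 0.0808 to 0.129. With each library's trend against GC content, length and level removed it was 0.19 (adjusted p = 0.296).

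Syt10, a calcium sensor of secretory vesicles found in SCN neurons, ranged from 24.3 to 73.7 CPM in DRF (median 62.2) and from 47.6 to 79.0 CPM in NRF (median 61.9). The Syt10 group means from ZT0 to ZT24 were 60.2, 56.1, 61.1, 56.6, 45.4, 66.3 and 64.6 CPM in DRF (SD 3.15, 4.89, 10.9, 10.6, 21.2, 6.49 and 5.02, n = 4 each). The Syt10 means in NRF were 60.2, 54.1, 56.9, 58.9, 60.2, 68.0 and 70.4 CPM (SD 2.91, 5.28, 6.18, 8.57, 10.2, 6.48 and 6.25, n = 4 each). The lowest group was DRF ZT16, which also had the widest spread, and the highest NRF ZT24. At ZT16 the DRF mice had 62.9, 64.3, 30.0 and 24.3 CPM and the NRF mice 47.6, 56.5, 66.8 and 70.0 CPM. The 2 low values belonged to the 2 libraries that stood apart. With all mice the ZT16 difference was -0.51 (SE 0.17, adjusted p = 0.0298, limma), and without these 2 libraries it was 0.09 (SE 0.14, adjusted p = 0.863). With all mice and library trends removed it was -0.44 (adjusted p = 0.0746). Over 56 mice the deviation of Syt10 from its group mean was correlated with the GC correlation of the library (r = -0.79, rho = -0.68, permutation p = 1e-05 for r, the smallest that 100000 permutations can give, adjusted p = 7e-05 over 7 genes). Leaving out the 2 mice farthest from the median of Syt10 gave r = -0.76, and leaving out the 2 libraries that stood apart gave r = -0.72. Zfhx3 (r = -0.54, rho = -0.43, adjusted permutation p = 0.0179) and Six3 (r = 0.38, rho = 0.54, adjusted permutation p = 0.025) were correlated with it as well, with r = -0.47 and 0.37 without the 2 farthest mice. The part of this library trend in the levels of the 3 genes was not tested beyond the fits with trends removed.

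Rgs16 encodes a GTPase-activating protein for the G proteins of the Gi class, which ends their signal. It ranged from 24.6 to 57.3 CPM in DRF (median 33.2) and from 24.9 to 65.5 CPM in NRF (median 39.2). The Rgs16 group means from ZT0 to ZT24 were 35.5, 45.5, 34.3, 30.7, 30.9, 33.4 and 37.7 CPM in DRF (SD 7.8, 9.01, 5.67, 3.88, 7.45, 2.92 and 10.8, n = 4 each). The Rgs16 means in NRF were 35.6, 46.1, 40.5, 41.3, 46.9, 47.5 and 43.0 CPM (SD 2.14, 14.9, 5.79, 14.1, 9.84, 9.92 and 17.0, n = 4 each). From ZT8 to ZT24 each NRF mean was above the DRF mean of that time, and at ZT0 and ZT4 the means were close. It was the only one of the 7 genes whose mean level over the day passed the test, being lower in DRF by this test as were 4.91% of all genes (10.5% in either direction). The difference was -0.26 (SE 0.084, interval -0.42 to -0.1, adjusted p = 0.0379, limma), a fold of 0.835, and the fitted difference was below 0 at 6 of 7 time points. At ZT20 the DRF mice had 32.5, 37.8, 32.2 and 31.3 CPM and the NRF mice 61.1, 47.9, 38.1 and 42.8 CPM, with no overlap, as for 8.21% of all genes. At ZT16 the DRF mice had 26.6, 24.6, 31.2 and 41.3 CPM and the NRF mice 38.6, 38.6, 52.4 and 57.9 CPM, and the difference was -0.59 (SE 0.22, adjusted p = 0.0521), or -0.83 (SE 0.27, adjusted p = 0.2) with 2 DRF mice left.

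Thalamic markers were lower in DRF together with Rgs16. Of the 5 genes on the thalamus list 3 were lower in mean level, namely Tcf7l2 (-0.46, adjusted p = 0.0315, limma), Ramp3 (-0.57, adjusted p = 0.0341) and Plekhg1 (-0.38, adjusted p = 0.0292), and the list median was -0.46 against 0 over all genes. Its summed level was 58.45 to 243.67 CPM in DRF (median 97.33) and 61.42 to 382.78 CPM in NRF (median 145.84), and none of the 5 markers was at 0 in any mouse. By time point the list median and Rgs16 did not always go together. At ZT8 they differed by 0.37 and -0.24, at ZT0 by -0.4 and -0.03, and at ZT4 by -0.41 and 0.02. At ZT12, ZT16 and ZT20 the list median was -1.11, -1.24 and -0.55, and Rgs16 was -0.36, -0.59 and -0.48. At ZT24 the values were 0.02 and -0.14. With the mean level of this list as a covariate, added after the data had been seen, the Rgs16 difference was -0.07 (SE 0.047, adjusted p = 0.383). Without the 2 libraries that stood apart it was -0.29 (adjusted p = 0.0218), where 10.4% of all genes passed. Without ZT16 it was -0.20 (adjusted p = 0.147), and leaving out replicate 1, 3 or 4 of every group gave -0.18, -0.28 and -0.26 (adjusted p = 0.285, 0.0964 and 0.0569).

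Prokr2, the receptor for the SCN output signal prokineticin 2, ranged from 7.97 to 16.9 CPM in DRF (median 11.3) and from 6.97 to 20.2 CPM in NRF (median 11.4). The Prokr2 group means from ZT0 to ZT24 were 11.2, 11.1, 9.61, 9.85, 11.6, 13.5 and 12.1 CPM in DRF (SD 2.64, 1.12, 1.46, 0.993, 2.88, 2.46 and 1.43, n = 4 each). The Prokr2 means in NRF were 12.3, 9.2, 8.72, 10.2, 13.7, 16.6 and 13.0 CPM (SD 1.57, 1.02, 1.37, 1.16, 4.91, 2.45 and 1.32, n = 4 each). In both regimens the mean was lowest at ZT8, in the light, and highest at ZT20, in the dark. For Zfhx3, Syt10, Rgs16 and Prokr2, as for Six6, all 13 steps between neighbouring groups in the order of means were within the larger SD. At NRF ZT16 2 mice had 9.8 and 9.11 CPM and 2 had 18.3 and 17.5 CPM. No time point separated the regimens, and the mean difference was -0.05 (SE 0.061, interval -0.17 to 0.06, adjusted p = 0.614, limma).

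**Figure D2:**
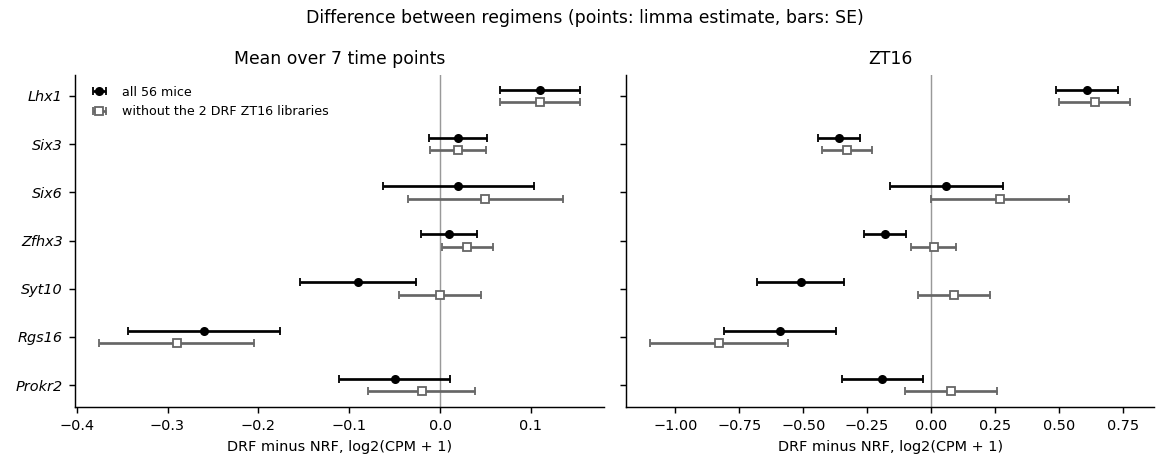
DRF minus NRF on the log2(CPM + 1) scale (horizontal axes) for each gene, averaged over 7 time points (left) and at ZT16 (right). Points are limma estimates and bars are SE, filled for all 56 mice and open without the 2 DRF ZT16 libraries that stood apart. The mean difference of Rgs16 lay at -0.26 and -0.29, and the ZT16 difference of Syt10 moved from -0.51 to 0.09.

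In 49 comparisons of the 7 genes at single time points 3 passed the test, all at ZT16, where 20.2% of all genes passed. They were Lhx1 (higher in DRF) and Six3 and Syt10 (lower in DRF), and at an unadjusted p under 0.05 there were 5 at ZT16. When the 2 libraries that stood apart were left out, Six3 and Syt10 did not pass (adjusted p = 0.158 and 0.863, limma) and 0.205% of all genes did. At ZT8 and ZT24, where 0.174% and 0.274% of all genes passed, none of the 7 did, and none reached an unadjusted p under 0.05. At ZT0, ZT4 and ZT20 the shares over all genes were 4.49%, 3.92% and 1.13%, and again none of the 7 passed, with 0, 1 and 1 at an unadjusted p under 0.05. Mice of the 2 regimens overlapped for all 7 genes at ZT0, ZT8 and ZT24, whereas 14.5%, 9.70% and 7.73% of all genes separated there.

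Rhythm was tested in each regimen by JTK_CYCLE and Lomb-Scargle combined, on the deposited values and not on log2(CPM + 1), over periods of 20 to 28 h. In NRF, 2 of the 7 genes were rhythmic, Prokr2 (adjusted p = 7.59e-05, Benjamini-Hochberg over 16245 genes, 4 mice per time point) and Zfhx3 (adjusted p = 0.00155), against 27.7% of all genes. In DRF none of the 7 was rhythmic, with 0 also at an unadjusted p under 0.05, against 0.813% of all genes. A cosine of 24 h fitted in limma gave Prokr2 an amplitude of 0.41 ± 0.062 (SE, log2 scale) with a peak at ZT19.5 ± 0.53 h in NRF, and 0.18 ± 0.06 with a peak at ZT20.8 ± 1.2 h in DRF. For Zfhx3 the amplitude was 0.16 ± 0.042 with a peak at ZT18.9 ± 0.9 h in NRF and 0.11 ± 0.037 with a peak at ZT0.1 ± 1.5 h in DRF. Both fitted peaks in NRF fell in the dark phase. For Zfhx3, however, the highest NRF group mean was at ZT24 (85.6 CPM), against 66.4 CPM at ZT0, the same clock phase. A 24-h cosine gives ZT0 and ZT24 the same value, so it cannot describe this difference of 0.36 on the log2 scale. Without ZT24 the adjusted p of Zfhx3 in NRF was 0.0334 (JTK_CYCLE and Lomb-Scargle). With the 2 libraries that stood apart left out, the DRF fit gave Prokr2 an amplitude of 0.21 ± 0.061 with a peak at ZT19.7 and Zfhx3 0.09 ± 0.036 with a peak at ZT22.0, and JTK_CYCLE and Lomb-Scargle were not run without them.

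The GC correlation of the NRF libraries moved with time as well, from 0.068 to 0.345 at ZT8 to -0.435 to -0.158 at ZT20 and -0.504 to -0.277 at ZT24. Against the GC correlation, the deviations within groups had r = -0.54 for Zfhx3, as given above, and r = -0.38 for Prokr2 (rho = -0.30, adjusted permutation p = 0.0595 for r, and r = -0.46 without the 2 farthest mice). With library trends removed the NRF cosine had an amplitude of 0.36 ± 0.057 for Prokr2 (adjusted p = 8.21e-06, limma, against 5.28e-06 with the trends) and 0.12 ± 0.036 for Zfhx3 (adjusted p = 0.025, against 0.00984).

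The difference in rhythm itself did not pass for any of the 7 genes (limma F test of both cosine terms), while 11.0% of all genes passed, and 3 of the 7 had an unadjusted p under 0.05. The adjusted p was 0.0898 for Zfhx3, 0.12 for Prokr2, 0.149 for Lhx1 and 0.186 for Rgs16. When the 2 libraries that stood apart were left out it was 0.358, 0.254, 0.342 and 0.128. The calls of Prokr2 and Zfhx3 in NRF and not in DRF thus came without a difference in rhythm that passed its own test. Syt10 had an adjusted p of 0.0934 in NRF with an amplitude of 0.14 ± 0.072 and a peak at ZT20.3 ± 1.9 h. The Prokr2 call held without any one replicate number (adjusted p 0.00268 to 0.0106) and without ZT24 (0.00269). The Zfhx3 call was lost without replicate 1 (0.0972).

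**Figure D3:**
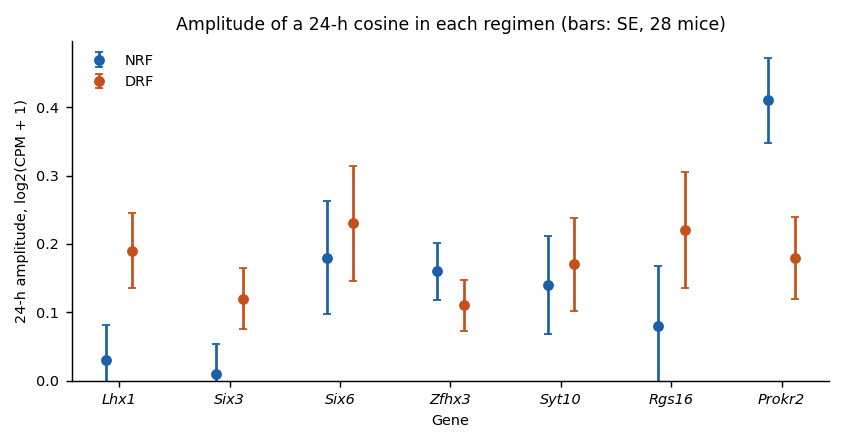
Amplitude of a 24-h cosine on the log2(CPM + 1) scale (vertical axis, from 0) for each gene in NRF and DRF, with bars of SE from 28 mice. Prokr2 in NRF had the highest amplitude (0.41) and its DRF value was 0.18.

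The dissection could vary between animals, so the deviation of each mouse from its group mean was compared between genes. Of 21 pairs among the 7 genes 3 passed an adjusted permutation p of 0.05 over 56 mice, all positive. Syt10 and Prokr2 had r = 0.68 (rho = 0.72, adjusted p = 0.00021 for both, permutation), with r = 0.64 without the 2 mice farthest in Syt10 and 0.65 without the 2 libraries that stood apart. The r was 0.69 within DRF and 0.76 within NRF. Zfhx3 and Syt10 had r = 0.63 (rho = 0.56, adjusted permutation p = 0.0084 and 0.00511), 0.58 without the 2 farthest mice and 0.45 without the 2 libraries that stood apart (adjusted permutation p = 0.0364), and with library trends removed r was 0.60 (adjusted permutation p = 0.0706). Without ZT16 it was r = 0.41 (adjusted permutation p = 0.126), and without replicate 4 of every group r = 0.56 (adjusted permutation p = 0.146).

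Lhx1 and Six6 had r = 0.54 (rho = 0.51, adjusted permutation p = 0.00294 and 0.00511), 0.44 without the 2 mice farthest in Lhx1. Within DRF the r was 0.65 and within NRF 0.24, a difference that was not tested. Leaving out replicate 1 or 2 of every group gave r = 0.45 and 0.34 (adjusted permutation p = 0.194 and 0.164). The other 18 pairs did not pass. Of these, Rgs16 and Prokr2 had r = 0.25 (rho = 0.30, adjusted permutation p = 0.23 and 0.148) and passed when the 2 libraries that stood apart were left out (r = 0.40, adjusted permutation p = 0.0364).

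Beyond the 7 genes, 105 relations were computed with the mean levels of 15 lists of region and cell type markers, and 26 passed, 12 positive and 14 negative. Six6 took part in 12 of them, Lhx1 in 8, Rgs16 and Zfhx3 in 2 each, Syt10 and Prokr2 in 1 each and Six3 in none. Spearman's rho had the same sign in all 26, as had r without the 2 mice farthest in the gene, and 10 to 20 relations passed when each replicate number was left out. Markers of an area that is abundant in one dissection take a share of the reads from others, so positive and negative relations are not independent of each other.

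Six6 followed the arcuate and ventromedial markers, which mark the tuberal hypothalamus behind the SCN (r = 0.87, rho = 0.77, permutation p = 1e-05 and 2e-05, adjusted 0.000262 and 0.000525). Without the 2 mice farthest in Six6 the r was 0.84, without the 2 libraries that stood apart 0.90, and within DRF and NRF 0.88 and 0.83. Of the 7 single markers, 6 were high in the same mice, among them Fezf1 (r = 0.87), Pomc (0.86), Nr5a1 (0.84) and Agrp (0.74), each with the smallest p that 100000 permutations can give (adjusted permutation p = 0.000292 over 497 relations). Kiss1 was not among them (r = 0.23, adjusted permutation p = 0.37). In the DRF group with the highest mean Six6, ZT0, the 4 mice had 22.6, 12.3, 17.7 and 14.3 CPM. Six6 was also correlated with the paraventricular and supraoptic (r = 0.61), ependyma and tanycyte (0.57), lateral hypothalamus (0.55), preoptic (0.53) and other SCN (0.47) lists, and inversely with the oligodendrocyte (-0.79), neuron (-0.76), microglia (-0.64), telencephalon (-0.55), endothelium (-0.54) and thalamus (-0.50) lists. The adjusted permutation p of these 11 relations was at most 0.0333. Single members of the positive lists went the other way: Crh of the paraventricular and supraoptic list (r = -0.61, adjusted permutation p = 0.00243), Moxd1 of the preoptic list (r = -0.55, adjusted permutation p = 0.00488) and Cck of the other SCN list (r = -0.50, adjusted permutation p = 0.00688) were inversely correlated with Six6.

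Rgs16 followed the thalamus list (r = 0.86, rho = 0.81, adjusted permutation p = 0.000262 and 0.00035, both at the smallest raw p). Without the 2 mice farthest in Rgs16 the r was 0.83, without the 2 libraries that stood apart 0.86, and within DRF and NRF 0.74 and 0.93. All 5 thalamic markers were correlated with it singly, from Tcf7l2 (r = 0.78) to Tnnt1 (r = 0.86). Rgs16 was also correlated with the list of 9 other SCN genes (r = 0.47, rho = 0.48, adjusted permutation p = 0.00969 and 0.011). Within that list it passed with Cck (r = 0.78) and Vipr2 (r = 0.54) and not with Avp, Vip, Grp, Nms or Prok2. Cck was itself lower in DRF in mean level (-0.47, adjusted p = 0.0368, limma), the only one of the 9.

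**Figure D4:**
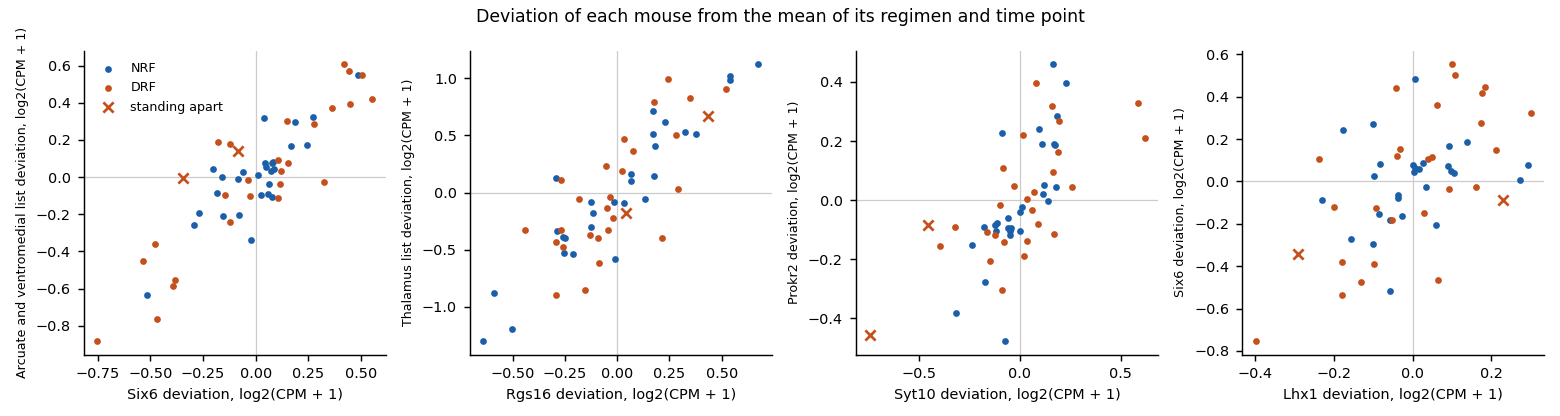
Deviation of each mouse from the mean of its regimen and time point on the log2(CPM + 1) scale, with 1 point per mouse, DRF and NRF in separate colours and crosses for the 2 DRF ZT16 libraries that stood apart. From left to right the panels show Six6 against the arcuate and ventromedial list (r = 0.87), Rgs16 against the thalamus list (r = 0.86), Syt10 against Prokr2 (r = 0.68) and Lhx1 against Six6 (r = 0.54).

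Lhx1 was correlated with the lateral hypothalamus (r = 0.51), arcuate and ventromedial (0.47) and ependyma and tanycyte (0.46) lists, and inversely with the neuron (-0.62), telencephalon (-0.48), microglia (-0.45), oligodendrocyte (-0.43) and thalamus (-0.36) lists, with adjusted permutation p of 0.00063 to 0.0441. The relation with the thalamus list did not pass without the 2 libraries that stood apart (adjusted permutation p = 0.0786). Zfhx3 was correlated with the other SCN list (r = 0.32, rho = 0.34, adjusted permutation p = 0.0449 and 0.0463), the first of which did not pass when any 1 replicate number was left out (adjusted permutation p of 0.144 to 0.244), and inversely with the telencephalon list (r = -0.48, adjusted permutation p = 0.00991). Syt10 was inversely correlated with the telencephalon list (r = -0.38, adjusted permutation p = 0.0333, and 0.0655 without the 2 libraries that stood apart) and Prokr2 with the lateral hypothalamus list (r = -0.39, adjusted permutation p = 0.0452). Among single SCN genes, Rorb, a nuclear receptor of SCN neurons, was correlated with Syt10 (r = 0.64), Zfhx3 (r = 0.61) and Prokr2 (r = 0.50), with adjusted permutation p of 0.00655, 0.00243 and 0.00846. The whole list of other SCN genes did not pass with Syt10 (r = 0.09, adjusted permutation p = 0.593) or Prokr2 (r = 0.20, adjusted permutation p = 0.334). Like Syt10, Rorb was lower in DRF at ZT16 with all mice (-0.41, adjusted p = 0.0133, limma). Without the 2 libraries that stood apart it did not pass (-0.14, adjusted p = 0.716). Six3 was correlated with Avp (r = 0.39, rho = 0.41, adjusted permutation p = 0.0172). The part of dissection in these levels was not tested.

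**Figure D5:**
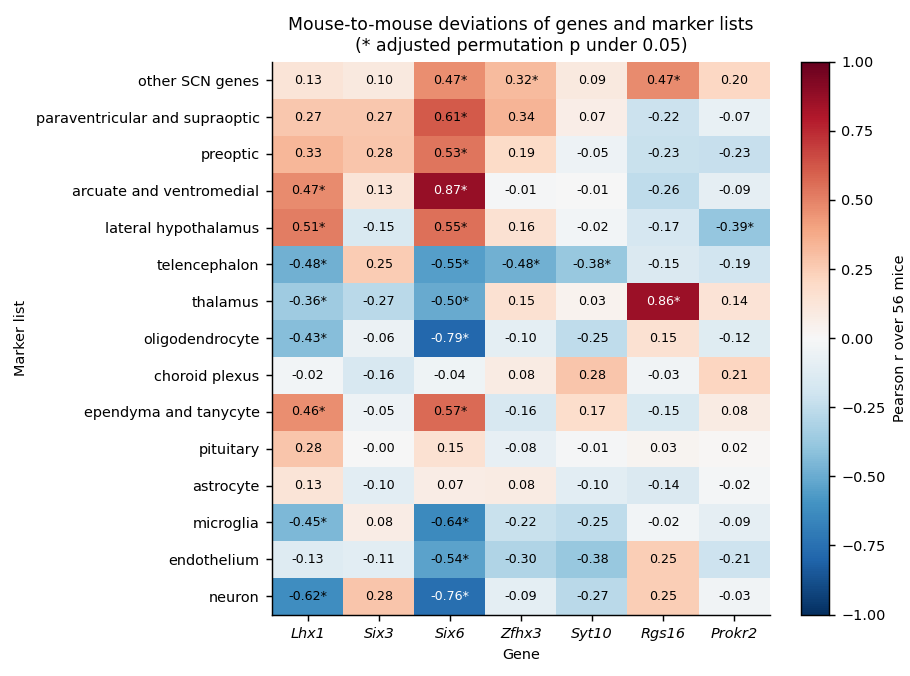
Pearson r over 56 mice (colour and printed value) between the deviations of each gene (columns) and of each marker list (rows), with a star where the adjusted permutation p was under 0.05. The column of Six6 has 12 stars and that of Six3 none, and the highest values are Six6 with the arcuate and ventromedial list (0.87) and Rgs16 with the thalamus list (0.86).

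Of the 9 other SCN genes 1 was lower in DRF in mean level (Cck), against 4.91% of all genes (10.5% in either direction). In NRF 2 of the 9 were rhythmic, against 27.7% of all genes. Relatives and partners of the 7 genes were read from 6 further lists. Prok2, the ligand of Prokr2, was rhythmic in NRF (adjusted p = 0.000237, JTK_CYCLE and Lomb-Scargle) with an amplitude of 0.33 and a peak at ZT3.7, at a mean of 2.91 CPM. Prok1, a paralog of that ligand at 0.298 CPM, was rhythmic in NRF too (adjusted p = 0.0301). Of 10 paralogs and partners of Six3 and Six6, Eya3, a coactivator of such factors, was higher in DRF in mean level by 0.06 (adjusted p = 0.0275, limma, and 0.0676 without the 2 libraries that stood apart), and Six4 was rhythmic in NRF (adjusted p = 0.00159, peak at ZT18.9). Of 7 LIM homeodomain genes and their cofactors, Lhx9 was lower in DRF (-0.37, adjusted p = 0.0225, limma).

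Of 2 ZFHX paralogs, Zfhx2 was higher in DRF (0.10, adjusted p = 0.0172, limma) and Zfhx4 was rhythmic in NRF (adjusted p = 0.0192) with a peak at ZT19.5. Of 15 synaptotagmins none differed in mean level and 3 were rhythmic in NRF (10.5% and 27.7% of all genes), Syt4 (peak at ZT20.4), Syt3 (ZT8.9) and Syt16 (ZT8.4). Of 11 tested genes of the R4 RGS and Gz signalling list, Rgs5 (-0.15, adjusted p = 0.00385, limma) and Rgs4 (-0.15, adjusted p = 0.00644) were lower in DRF, as was Rgs16, and Gnai3 was rhythmic in NRF (adjusted p = 0.00497). None of the genes on these 6 lists was rhythmic in DRF, where 0.813% of all genes were. The difference in rhythm between regimens did not pass for any of them either (limma F test), while 11.0% of all genes passed. Their calls in NRF thus came without a difference in rhythm that passed its own test. The median mean-level difference was between -0.03 and 0.06 in each of the 6 lists, against 0 over all genes.

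Genes most like each of the 7 from mouse to mouse are given as a description, by Pearson r of deviations over 56 mice, without a test. They were Foxb1 (0.74), Adcyap1 (0.74) and Adamts2 (0.73) for Lhx1, and Dlx2 (0.70), Fbxo21 (0.67) and Ubqln2 (0.67) for Six3. For Six6 they were H2-Q2 (0.89), Sox14 (0.88) and Celf6 (0.87), and for Zfhx3 they were Lsamp (0.81), its paralog Zfhx4 (0.81) and Lin28b (0.80). Syt10 was followed most closely by Pcm1 (0.93), B230219D22Rik (0.92) and Casd1 (0.92), which were at 0.82, 0.82 and 0.81 without the 2 libraries that stood apart. Rgs16 had Kcnj9 (0.88), Vangl1 (0.87) and Synpo2 (0.87), and Prokr2 had the lowest values, with Tgfb2 (0.69), Dennd1b (0.65) and Hdac9 (0.64). Over the 14 group means the closest genes were Osbpl7 (0.91) and Chgb (0.91) for Lhx1, Sox1 (0.83) and Nr2e1 (0.77) for Six3, Slc39a6 (0.95) and AW551984 (0.90) for Six6, and Enah (0.95) and Cd47 (0.92) for Zfhx3. They were Tial1 (0.97) and Matr3 (0.97) for Syt10, B3galnt1 (0.90) and Tspyl1 (0.86) for Rgs16, and Adal (0.92) and Hspd1 (0.91) for Prokr2.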

How the data were processed

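RNA-seq was made from polyA RNA of the anterior hypothalamus of 56 mice (BGISEQ-500, paired ends). Per the labels and the study's methods the authors used HISAT2, Bowtie2 and RSEM on mm10 (GRCm38.p6) and TMM normalization, and deposited 1 table of values named TPM. The values did not behave as TPM: what the authors deposited is a compressed score, made from the log2 of 1 plus normalized counts, divided by gene length and scaled to a common sum per library. The score was inverted with exon lengths of GENCODE M21, or with a length found by search where these did not give whole reads. Whole reads, within a tolerance of 0.02 in a share of at least 0.9 of the mice with reads, resulted for 15334 of 17564 genes. Of these, 14263 had the annotation length. The other 1071 had a length searched for because it gave whole reads, so whole reads are no check of the inversion for them. The remaining genes were used on the recovered scale where a length was found, and 199 were left out.

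JTK_CYCLE and Lomb-Scargle used the deposited values. The other tests, among them the limma fits and the correlations, used log2(CPM + 1), a pseudocount of 1. A gene was kept where 80% of mice or more had a deposited value no lower than 1. A fold change on the log2(CPM + 1) scale understates the change of low genes. limma 3.58.1 (R 4.3.3) was fitted with trend to 14 group means of 16074 genes with Benjamini-Hochberg adjustment, and rhythm tests covered 16245 genes. Correlations used deviations from group means and 100000 two-sided permutations within groups. Python 3.11.15, numpy 2.4.6, pandas 2.3.3 and scipy 1.17.1 were used, and scripts were tested on simulated data. Intervals are approximate, at 95%. Library sizes of 29591265 to 34493343 reads leave a counting SD of 0.09 on the log2 scale for Lhx1 and 0.03 for Zfhx3.

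The 7 genes, the marker lists and the pathway lists were chosen with earlier results of these data known. Named are the 7 genes, at most 3 genes per pathway list past an adjusted p of 0.05, the leading markers of lists, and for each of the 7 the 3 closest genes over mice and the 2 closest over group means. Markers and comparisons outside this rule were named after their values were seen, where a result turned on them. Alternatives were another scale or pseudocount, no filter, median centring, a replicate block, leaving out replicates or time points, and, added after the data had been seen, leaving out the 2 libraries that stood apart, removing library trends, marker lists as covariates and voom weights, as were the relations with single markers and with the GC correlation of libraries. edgeR was not run here.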

Additional observations from a re-analysis of the deposited data

Results flagged for a closer look

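Of 98 groups of 4 mice (7 genes in 14 groups), 5 had 1 mouse whose gap to the nearest other mouse was a larger share of the group's range than Dixon's 95% critical value allows. Chance alone gives this in about 1 in 20 groups. Six6 in NRF ZT24 had 1 mouse at 9.81 CPM below the others at 12.0 to 12.2 CPM (share of the range 0.915). Zfhx3 appeared 3 times, with 1 DRF ZT24 mouse at 88.1 CPM above the others at 81.6 to 82.4 CPM (0.874), 1 NRF ZT12 mouse at 65.8 CPM below 77.0 to 77.6 CPM (0.952) and 1 NRF ZT20 mouse at 74.4 CPM below 84.7 to 85.9 CPM (0.901). Prokr2 in NRF ZT20 had 1 mouse at 20.2 CPM above the others at 15.2 to 15.5 CPM (0.952).

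The difference between DRF and NRF changed with time point for Lhx1 (adjusted p = 0.013, limma interaction test) and for Six3 (adjusted p = 0.00265). This test was added after the data had been seen, and 13.2% of all genes passed it. Neither gene passed without ZT16 or without replicate 3 of every group, as given above. The sign at ZT16 was positive for Lhx1 and negative for Six3.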

How the results depend on the processing

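Over all alternatives, 852 values of single genes, or of relations that passed with all mice, kept their direction and their side of the threshold, 103 no longer passed, 8 newly passed and 17 changed sign, and the cause was not tested. Of the relations that did not pass with all mice, 4 pairs and 9 relations with lists passed under at least 1 alternative, 5 of the latter with library trends removed, such as Zfhx3 with the neuron list (r = -0.58, adjusted permutation p = 0.0043, against 0.711). In mean level 1 of the 7 genes passed, and 0 passed on the deposited scale (log2 of the value plus 1), without ZT16, with library trends removed or with the thalamus list as a covariate, while leaving out each replicate gave 0 to 1. Leaving out each replicate gave 0 to 4 calls at single time points (3 with all mice), 0 to 0 for ZT24 against ZT0 (1 with all mice), 1 to 2 for rhythm in NRF (2 with all mice), 0 to 1 for the rhythm difference (0 with all mice) and 10 to 20 for relations with marker lists (26 with all mice). With library trends removed the ZT24 against ZT0 count was 0 and the rhythm difference count was 1 (Zfhx3, adjusted p = 0.0281), and Lomb-Scargle alone gave 0 rhythmic genes in NRF. Among single results, Zfhx3 at ZT16 passed without replicate 1 or 2 (-0.27 and -0.3, adjusted p = 0.0464 and 0.00953, limma), its interaction without replicate 2 (adjusted p = 0.0319), the rhythm difference of Prokr2 without replicate 2 (adjusted p = 0.0495) and rhythm of Syt10 in NRF without ZT16 (adjusted p = 0.0307).

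Ranges are without each replicate. In mean level the values that changed sign were Six3 (-0.04 to 0.07, with -0.0016 without replicate 1, -0.04 without replicate 4, -0.0076 with trends removed, -0.0031 with the thalamus covariate), Six6 (-0.11 without replicate 1, -0.09 with the thalamus covariate), Zfhx3 (-0.04 to 0.03, the lowest without replicate 2, -0.07 with trends removed), Syt10 (0.00075 without the 2 libraries that stood apart) and Prokr2 (-0.13 to 0.0057, the highest without replicate 3). At ZT16 they were Six6 (-0.08 without replicate 2 to 0.2, -0.26 with either covariate), Zfhx3 (0.01), Syt10 (0.09) and Prokr2 (0.08) without the 2 libraries that stood apart, and Prokr2 (-0.43 to 0.09, the highest without replicate 4).

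Over all genes, 3243 passed at ZT16 and 1692 in mean level. Without the 2 libraries that stood apart 33 passed at ZT16, with library trends removed 1740, with the thalamus covariate 1938, and without each replicate 23 to 4971. In mean level 398 to 2349 passed without each replicate. Median centring gave 3598 at ZT16. Deviations of mice with the same replicate number had a median r of 0.001 (range -0.494 to 0.523), against a median of -0.004 for different numbers. The labels do not say what the numbers stand for, and these medians cannot show whether mice of 1 number were handled together. A replicate block changed 1 of 84 values, the relation of Zfhx3 with the other SCN list (r = 0.22, adjusted permutation p = 0.192). With 144 to 361 reads Lhx1 was the gene limited most by depth.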
